A study of Mus musculus with 9 samples.

Results

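The unfolded protein response and its endoplasmic reticulum (ER) chaperones were followed through 37 genes, taken by name from the 56860 genes of the deposited count table. The list holds 3 stress sensors, 3 transcription factors, 12 chaperones and co-chaperones, 4 protein disulfide isomerases, 9 genes of ER-associated degradation, 4 genes of the PERK and ATF4 branch and 2 genes of the translocon. All 37 passed the filter on low counts. The members were chosen by gene name with the levels and fold changes of the 3 comparisons below already seen, so their counts of higher and lower genes are given as a description and support nothing by themselves. RNA of mouse spleen cells labelled CD4+ T cells was sequenced in 3 libraries from control mice, 3 from mice labelled CIA and 3 from CIA mice treated with luteolin, a plant flavone. The series title places the study in RA and in the differentiation of Th17 cells. The labels used here give no strain, sex, age, luteolin dose or treatment time, and no agent or genotype for control or CIA beyond the name. Whether the replicates came from different animals is not stated either, so p-values measure only the spread between these samples.

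Proteins that enter the ER are folded there by chaperones, of which BiP is the central one, and by enzymes that form disulfide bonds. When unfolded proteins accumulate, the sensors IRE1, PERK and ATF6 signal to the nucleus, where XBP1, ATF4 and cleaved ATF6 raise the transcription of chaperones, folding enzymes and the machinery that sends misfolded proteins to the proteasome, while PERK slows protein synthesis. In the spleen this response is best known from plasma cells, whose secretion of antibody needs a large ER, and all proliferating or secreting cells use its chaperones.

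Totals per library ran from 31234177 to 41815573 counts, and levels are given as CPM, counts relative to the TMM-scaled total of the library. Markers of cells other than CD4+ T cells were present in all 3 groups. Cd4 itself stood at 2.46 to 3.65 CPM in the libraries labelled control, 82.1 to 151 CPM in CIA and 98.4 to 106 CPM with luteolin, which goes against the label in the control libraries, and each direction below that is drawn against control rests on those libraries. The 9 T cell markers summed to 102 to 122 CPM in control, 268 to 520 CPM in CIA and 284 to 298 CPM with luteolin. The 8 B cell markers summed to 1936 to 2034 CPM in control, 394 to 493 CPM with luteolin and 285 to 1718 CPM in CIA, where replicate 1 was highest and replicate 3 lowest. Outside control too, the B cell sum exceeded the T cell sum in CIA replicates 1 and 2 and in every luteolin library. These are sums of different genes and do not measure shares of cells. Markers of other cells were thus present in both groups of luteolin against CIA, and their part in its changes was not tested. In such bulk samples fewer cells of a type and less RNA per cell cannot be told apart.

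The best described DNA signal of this response is the ER stress response element (ERSE), the letters CCAAT and CCACG with any 9 bases between them, to which NF-Y and ATF6 or XBP1 bind. It was searched on both strands of the RefSeq promoters of GRCm38.p6, which run from 250 bases before to 50 bases after each start, together with ERSE-II (ATTGG, any 1 base, then CCACG), the core of the UPR element (TGACGTGG) and the composite element bound by ATF4 (TGATGNAA). Promoters were found for 33 of the 37 members, all but Atf6, Hyou1, Manf and Derl1. ERSE was found for 10 of these 33 genes (30.3%) and for 37 of all 27025 genes (0.137%), or in 39 of all 32851 promoters (0.119%). The members were chosen by name as genes of this response, so their higher share is a description and no test. ERSE-II was found for Herpud1 and Dnajb11, and in 12 of all promoters (0.0365%). The UPR element core was, in the form searched, in no member promoter and in 0.676% of all promoters. Other forms were not searched, and the promoter of Hspa5 holds TGACGTGA. The ATF4 element was found for Asns, Chac1, Trib3 and Herpud1, and in 3.97% of all promoters. A match is a description of these letters and not a mapped binding site. The ERSE sites are shown because most of these genes rose in luteolin against CIA while 2 of them, Calr4 and Syvn1, fell. They are printed with 10 bases on each side, in the direction of the motif and with its fixed letters in capitals.
Hspa5 (chr2:34772015-34772053, plus strand): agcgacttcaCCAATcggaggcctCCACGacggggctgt
Calr (chr8:84847065-84847103, plus strand): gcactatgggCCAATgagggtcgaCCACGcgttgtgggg
Canx (chr11:50325790-50325828, minus strand): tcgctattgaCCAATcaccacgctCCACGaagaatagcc
Pdia6 (chr12:17266481-17266519, plus strand): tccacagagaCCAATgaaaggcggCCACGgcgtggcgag
Dnajc3 (chr14:118937817-118937855, plus strand): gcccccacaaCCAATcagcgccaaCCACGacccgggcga
Creld2 (chr15:88819510-88819548, minus strand): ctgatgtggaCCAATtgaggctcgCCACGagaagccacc
Derl3 (chr10:75893232-75893270, minus strand): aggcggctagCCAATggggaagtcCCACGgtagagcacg
Calr4 (chr4:109218228-109218266, minus strand): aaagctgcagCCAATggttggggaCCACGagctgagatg
Syvn1 (chr19:6046522-6046560, plus strand): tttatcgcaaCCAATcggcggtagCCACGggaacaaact
These sites share the fixed letters and differ in the 9 bases between them, and they lay between 26 and 175 bases before the start. The promoter of Hsp90b1 held ERSE on both strands, 212 to 194 and 107 to 89 bases before the start. The stretch with both sites (chr10:86705523-86705666, minus strand) is printed in the direction of the gene, with the fixed letters of both in capitals and the nearer one read on the other strand.
Hsp90b1: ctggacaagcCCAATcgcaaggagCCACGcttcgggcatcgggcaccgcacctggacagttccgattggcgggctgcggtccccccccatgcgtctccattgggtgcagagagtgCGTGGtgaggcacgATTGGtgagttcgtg
Herpud1 held ERSE-II 52 to 42 bases before the start, and the ATF4 elements of Asns and Chac1, which are targets of ATF4, lay 23 to 16 and 193 to 186 bases before it.
Herpud1 (chr8:94386367-94386397, plus strand): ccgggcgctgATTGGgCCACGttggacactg
Asns (chr6:7693215-7693242, minus strand): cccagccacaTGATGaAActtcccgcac
Chac1 (chr2:119351039-119351066, minus strand): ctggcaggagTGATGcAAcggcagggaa

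**Figure D1:**
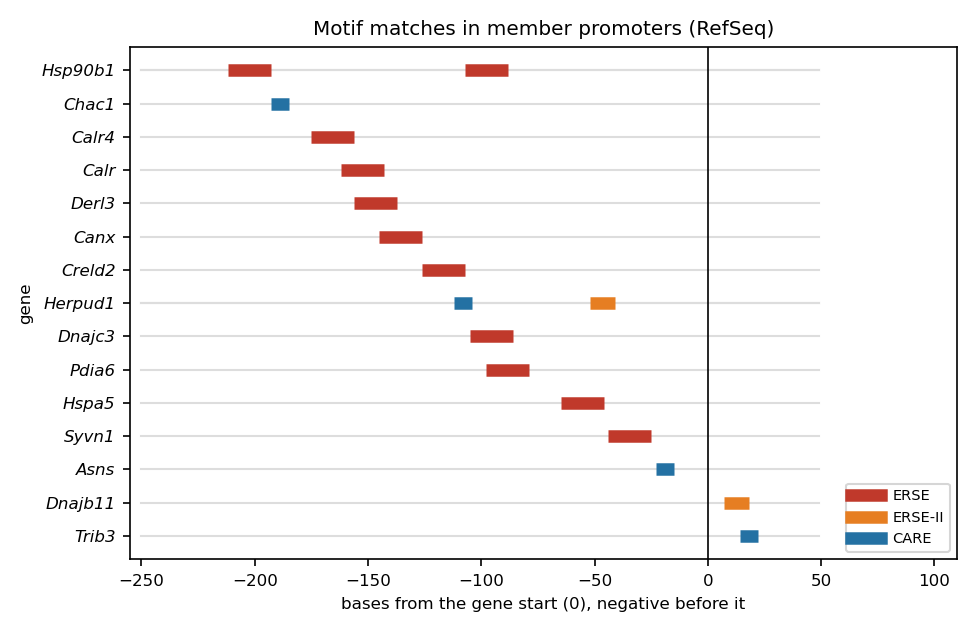
Positions of ERSE, ERSE-II and ATF4-element matches in the member promoters, in bases relative to the RefSeq start (horizontal axis), with 1 row per gene that holds a match. The matches in Hsp90b1 lie 212 to 194 and 107 to 89 bases before the start, and that of Syvn1 is the ERSE nearest to it.

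Most ER chaperones and folding enzymes were higher in the luteolin libraries than in both other groups. Against CIA, Sdf2l1, a co-chaperone of BiP, was 3.97-fold higher, and Hsp90b1, the ER member of the Hsp90 family, 2.05-fold higher. The sensor Ern1 rose in the same comparison while the sensor Eif2ak3 fell, and the transcription factor Xbp1 did not pass the test. Of the 37 members 21 were higher and 7 lower in luteolin against CIA (56.8% and 18.9%), where 23.1% and 24.2% of the 19348 tested genes were called in these directions and 47.3% in either. The median log2 fold change of the members was 0.64, and that of all tested genes -0.04. Those 21 members were called higher under each of the 16 alternatives tried, 9 of which left out 1 library. The 7 lower calls held less well, all 7 being kept in 3 of the 16, and the count of lower members was 3 without luteolin replicate 2, 4 without luteolin replicate 3, and 4 when only the 2 groups were fitted. Groups of libraries did not overlap for 21 higher and 5 lower members, against 28.0% and 27.7% of all tested genes, and 55.7% in either direction.

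Members fell more often than they rose in CIA against control. Of the 37, 7 were higher and 13 lower, where 26.6% and 24.5% of all tested genes were called higher and lower. The share of members called in either direction, 54.1%, was near that of all tested genes, 51.1%. The median log2 fold change was -0.12 for the members and -0.01 for all genes. The libraries of the 2 groups did not overlap for 6 higher and 14 lower members, against 29.7% and 29.1% of all tested genes, 58.7% in either direction. The number of higher members depended on single libraries, being 4 without control replicate 1 or 2 and 11 without CIA replicate 1. In luteolin against control 22 members were higher and 3 lower, where 24.2% and 20.8% of all tested genes were called and 45.0% in either direction, and the medians were 0.43 and -0.01. Groups did not overlap for 25 higher and 7 lower members, against 32.3% and 30.9% of all tested genes, 63.3% in either direction. The 3 lower members became 5 without CIA replicate 1 and 6 without CIA replicate 3. When only the 2 groups compared were fitted, the calls of Dnajb9, Dnajb11, Dnajc3, Canx, Derl2 and Ppp1r15a in CIA against control and of Atf4, Atf6 and Trib3 in luteolin against CIA were lost. In luteolin against control the same fit added calls, lower for Atf6, Ddit3 and Ppp1r15a and higher for Dnajb9 and Derl3. The calls of Dnajb11, Dnajc3 and Derl2 in CIA against control, and of Derl2 in luteolin against control, were also lost with no filter on low counts. Every pair of these comparisons shares 1 group of libraries, so their values are given side by side and not counted against each other.

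**Figure D2:**
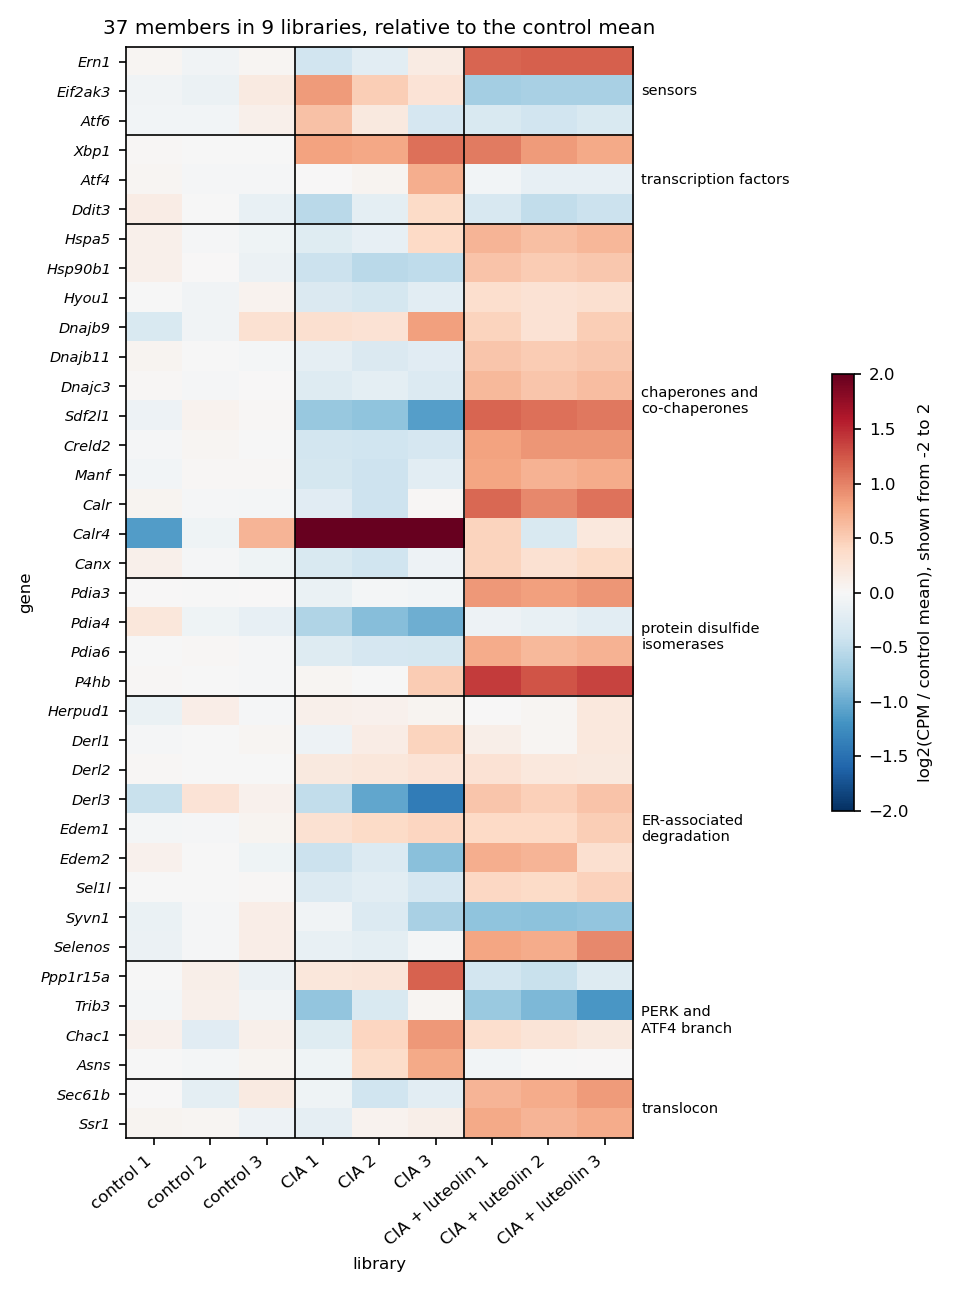
Level of each of the 37 members (rows, by role) in the 9 libraries (columns), as the log2 ratio of its CPM to the mean of the 3 control libraries, with colours limited to 2 in either direction. Most chaperone and isomerase rows are above control in all 3 luteolin libraries, and Calr4, Xbp1, Eif2ak3 and Edem1 are among the rows above the control mean in all 3 CIA libraries.

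The 3 sensors moved in different ways. Ern1 encodes IRE1, the nuclease that splices Xbp1 mRNA, and lies on chromosome 11 (106285476 to 106378678, minus strand, mm39). Its level was 63.8, 59.2 and 63.8 CPM in control, 47.6, 54.1 and 70.1 CPM in CIA, and 140, 143 and 143 CPM with luteolin. The luteolin libraries were well above all others, with a log2 fold change of 1.31 ± 0.12 (SE) against CIA (edgeR adjusted p = 1.66e-05) and of 1.19 ± 0.12 against control (edgeR adjusted p = 3.95e-05). CIA and control were not told apart at -0.12 ± 0.12 (edgeR adjusted p = 0.428), a value that became -0.29 and passed without CIA replicate 3.

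Eif2ak3, the gene of PERK, which phosphorylates the translation factor eIF2, ran the other way. It is on chromosome 6 (70821499 to 70882229, plus strand, mm39), and 8.048% of its exonic bases are shared with an opposite-strand gene model. Its level was 147, 142 and 175 CPM in control, 279, 217 and 186 CPM in CIA, and 96.6, 98.9 and 98.5 CPM with luteolin. The 3 groups did not overlap, CIA being highest and luteolin lowest. The log2 fold change was 0.56 ± 0.14 in CIA against control (edgeR adjusted p = 0.00608), -1.22 ± 0.14 in luteolin against CIA (edgeR adjusted p = 5.47e-05) and -0.66 ± 0.14 in luteolin against control (edgeR adjusted p = 0.00274).

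Atf6, the membrane-bound factor that is cut free in the Golgi, was at 95.1, 95.6 and 106 CPM in control, 149, 113 and 78.8 CPM in CIA and 80.4, 76.0 and 80.5 CPM with luteolin. CIA replicate 3 lay among the luteolin libraries, so those groups overlapped. The luteolin libraries were called lower than CIA at -0.53 ± 0.18 (edgeR adjusted p = 0.0317). That call was lost when control replicate 2, CIA replicate 1 or 2, or any luteolin replicate was left out, and with only the 2 groups fitted (edgeR adjusted p from 0.0502 to 0.130), and the value was -0.28 without CIA replicate 1. In CIA against control the value was 0.20 ± 0.18 and was not called (edgeR adjusted p = 0.369), but was 0.41 and called higher without CIA replicate 3 and -0.05 without CIA replicate 1. Luteolin against control was not called either, at -0.33 ± 0.18, though it passed without CIA replicate 1 or 3.

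Of the 3 transcription factors Xbp1 alone separated both disease groups from control. Xbp1, the factor made from mRNA spliced by IRE1, is on chromosome 11 (5470659 to 5475893, plus strand, mm39), and gene counts do not separate its spliced and unspliced forms. It stood at 177, 174 and 173 CPM in control, 306, 297 and 376 CPM in CIA and 359, 314 and 294 CPM with luteolin. The log2 fold change against control was 0.90 ± 0.10 in CIA (edgeR adjusted p = 9.00e-05) and 0.89 ± 0.10 with luteolin (edgeR adjusted p = 8.83e-05). Luteolin and CIA overlapped and differed by -0.02 ± 0.10 (edgeR adjusted p = 0.907).

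Atf4, translated preferentially when eIF2 is phosphorylated, was at 303, 290 and 291 CPM in control, 297, 306 and 490 CPM in CIA and 282, 264 and 264 CPM with luteolin. CIA replicate 3 alone was far above the rest. Luteolin was called lower than CIA at -0.43 ± 0.16 (edgeR adjusted p = 0.0474), but the value was -0.16 without CIA replicate 3 and the call was lost in 11 of the 16 alternatives, among them the removal of any single library other than CIA replicate 1 or 2. Against control Atf4 was not called in CIA, at 0.30 ± 0.16 (edgeR adjusted p = 0.135), and was called at 0.43 without CIA replicate 1. Ddit3, which encodes the pro-death factor CHOP, was at 333, 300 and 272 CPM in control, 208, 264 and 393 CPM in CIA and 241, 215 and 223 CPM with luteolin. None of its 3 comparisons passed (edgeR adjusted p = 0.787, 0.149 and 0.0947). Without CIA replicate 3 Ddit3 was called lower in CIA against control at -0.35, and without CIA replicate 1 it was called lower in luteolin against CIA at -0.53. Luteolin against control was called lower, at -0.41, without CIA replicate 1 or 3.

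**Figure D3:**
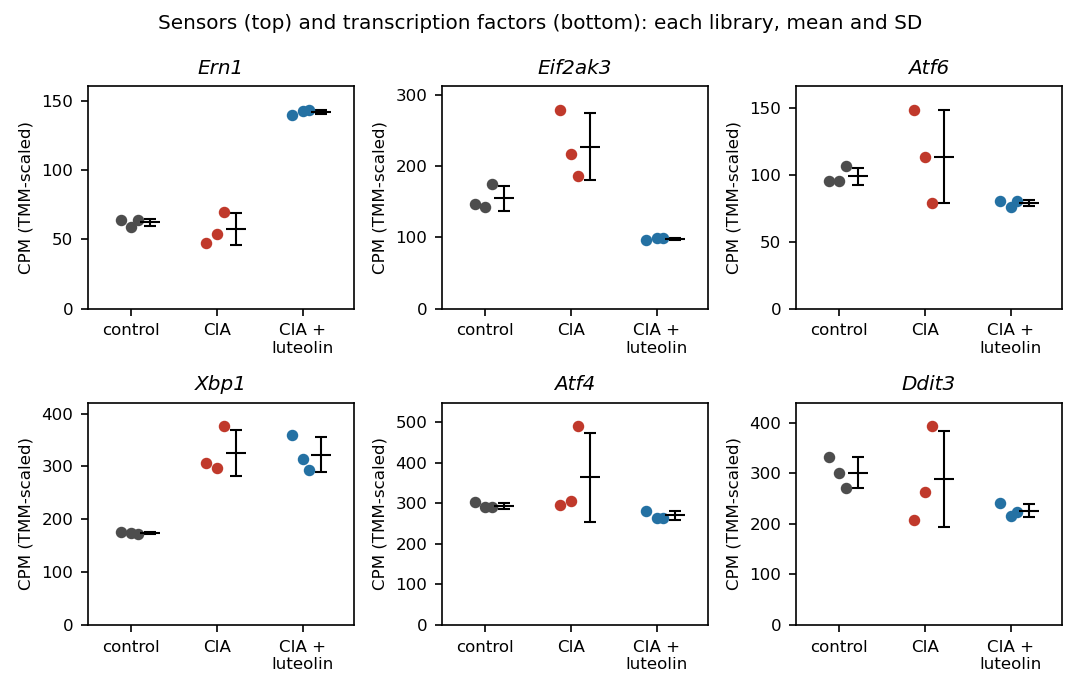
Level in CPM (vertical axes, a scale for each gene) of the 3 sensors and 3 transcription factors in the 9 libraries, as points with the mean and SD of each group of 3. Ern1 is at 140 to 143 CPM in the luteolin libraries and at most 70.1 CPM elsewhere, Eif2ak3 is lowest with luteolin, and Xbp1 is above control in both CIA groups.

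Of the 12 chaperones and co-chaperones, 10 rose and 1 fell in luteolin against CIA, with a median log2 fold change of 0.80. In CIA against control 2 rose and 8 fell (median -0.25), and in luteolin against control 10 rose and none fell (median 0.57). Beside this and each role list below, 23.1% of all tested genes were called higher and 24.2% lower in luteolin against CIA. The shares were 26.6% and 24.5% in CIA against control, and 24.2% and 20.8% in luteolin against control. Summed over the 12 genes the level was 5223 to 5817 CPM in control, 4095.5 to 4825 CPM in CIA and 8321 to 8964 CPM with luteolin. The 3 groups did not overlap in this sum. Most of it came from Hsp90b1, Calr and Canx, with means of 2552, 1113 and 838 CPM in control and 3714, 2331 and 1089 CPM with luteolin.

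Hsp90b1, or GRP94, was the most abundant member per length in each group, with a mean of 633 CPM per kilobase of exon in control, 450 in CIA and 921 with luteolin. It lies on chromosome 10 (86526073 to 86541373, minus strand, mm39). Its level was 2735, 2559 and 2362 CPM in control, 1890, 1757 and 1798 CPM in CIA and 3800, 3642 and 3698 CPM with luteolin. Every CIA library was below and every luteolin library above all control libraries. Hsp90b1 fell by 0.49 on the log2 scale in CIA (SE 0.07, edgeR adjusted p = 0.000235) and rose by 1.03 ± 0.07 in luteolin against CIA (edgeR adjusted p = 1.24e-06). Of its exonic bases 15.67% are shared with other gene models, the largest share of any member, and counts of overlapping genes could not be told apart.

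Hspa5, which encodes BiP, the Hsp70 of the ER and regulator of all the sensors, differed from Hsp90b1 in CIA. It was at 478, 438 and 417 CPM in control, 376, 395 and 587 CPM in CIA and 710, 672 and 705 CPM with luteolin. All luteolin libraries were above all others, by 0.62 ± 0.15 against CIA (edgeR adjusted p = 0.00532) and 0.65 ± 0.15 against control (edgeR adjusted p = 0.00446). CIA against control was not called at 0.03 ± 0.14 (edgeR adjusted p = 0.889). Without CIA replicate 3, the highest of that group, it was -0.20 and passed the threshold in the opposite direction.

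Calr encodes calreticulin, the soluble lectin chaperone that binds sugar-bearing proteins and calcium, and was second in level per length, with means of 386, 338 and 809 CPM per kilobase. It is on chromosome 8 (85568479 to 85573563, minus strand, mm39). The libraries were at 1152, 1101 and 1086 CPM in control, 949, 837 and 1131 CPM in CIA and 2475, 2159 and 2357 CPM with luteolin. Luteolin was above CIA by 1.26 ± 0.10 (edgeR adjusted p = 5.91e-06) and above control by 1.07 ± 0.10 (edgeR adjusted p = 2.48e-05). CIA against control was not called at -0.19 ± 0.10 (edgeR adjusted p = 0.132), and was called at -0.31 without CIA replicate 3. Canx, the membrane-bound lectin chaperone calnexin, was at 838 ± 57.1 CPM (SD, n = 3) in control, 699 ± 76.3 CPM in CIA and 1089 ± 49.9 CPM with luteolin. It rose by 0.64 ± 0.09 in luteolin against CIA (edgeR adjusted p = 0.000219). Its fall in CIA against control, -0.26 ± 0.09 (edgeR adjusted p = 0.0296), was lost without control replicate 1 (-0.21), control replicate 2 (-0.28) or CIA replicate 2 (-0.20).

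Calr4, a paralogue of calreticulin, had the opposite pattern. It lies on chromosome 4 (109091682 to 109111768, plus strand, mm39). The libraries held 8, 16 and 22 counts in control, 292, 583 and 770 counts in CIA and 25, 14 and 17 counts with luteolin, which is 0.435 ± 0.249, 16.9 ± 8.67 and 0.483 ± 0.122 CPM. All 3 CIA libraries were above all others, though they differed among themselves with replicate 3 highest. The log2 fold change was 5.31 ± 0.49 in CIA against control (edgeR adjusted p = 2.29e-05) and -5.11 ± 0.48 in luteolin against CIA (edgeR adjusted p = 1.51e-05). Luteolin against control was 0.20 ± 0.61 and not called (edgeR adjusted p = 0.817).

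The smaller partners of BiP followed Hsp90b1. Sdf2l1, a subunit of the complex of BiP with ERdj3 (chromosome 16, 16948002 to 16950247, minus strand, mm39), was at 6.45, 7.27 and 7.05 CPM in control, 4.11, 3.95 and 3.24 CPM in CIA and 15.6, 14.9 and 14.4 CPM with luteolin. It fell by 0.87 in CIA (SE 0.13, edgeR adjusted p = 0.000302) and rose by 1.99 ± 0.12 in luteolin against CIA (edgeR adjusted p = 9.01e-07). Creld2, a secreted ER stress protein, was at 63.8, 66.2 and 64.2 CPM in control, 50.1, 49.1 and 51.5 CPM in CIA and 113, 119 and 120 CPM with luteolin. For both genes the 3 groups were apart, with CIA lowest. Creld2 changed by -0.37 ± 0.07 in CIA against control (edgeR adjusted p = 0.00143) and by 1.22 ± 0.07 in luteolin against CIA (edgeR adjusted p = 4.74e-07).

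Manf, a neurotrophic factor held in the ER by BiP, was at 111 ± 3.37 CPM in control, 89.3 ± 6.60 CPM in CIA and 186 ± 6.48 CPM with luteolin. Of its exonic bases 9.251% are shared with other gene models. Hyou1, the exchange factor of BiP, was at 146 ± 7.51 CPM in control, 120 ± 5.81 CPM in CIA and 181 ± 3.12 CPM with luteolin. Dnajc3 and Dnajb11 encode J-domain partners of BiP. Dnajc3 was at 60.9 ± 1.21, 51.6 ± 1.41 and 92.6 ± 2.69 CPM, and Dnajb11 at 136 ± 4.68, 116 ± 4.29 and 196 ± 3.35 CPM. These 4 genes were called lower in CIA against control, at log2 fold changes from -0.32 to -0.23, and higher in luteolin against CIA, from 0.60 to 1.06. The CIA call of Dnajb11 was lost without control replicate 1 or CIA replicate 2, at -0.21 in both cases. The third J-domain member, Dnajb9 (ERdj4), a target of XBP1, stood apart at 31.3 ± 6.85, 44.0 ± 9.53 and 41.6 ± 2.94 CPM. Its CIA libraries were called higher than control by 0.49 ± 0.17 (edgeR adjusted p = 0.0348) although the groups overlapped. The call was lost without control replicate 1 (0.36) or 2 (0.46), CIA replicate 3 (0.31), or luteolin replicate 1 or 3 (0.49 in both). Luteolin against CIA was not called for Dnajb9, at -0.08 (edgeR adjusted p = 0.729), while luteolin against control, at 0.41 (edgeR adjusted p = 0.0744), was called without control replicate 3 (0.60) or CIA replicate 3 (0.42), and in several of the other fits.

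All 4 protein disulfide isomerases rose in luteolin against CIA, with a median log2 fold change of 0.97, and 3 rose against control. Their summed level was 1212 to 1417 CPM in control, 933 to 1009 CPM in CIA and 1760 to 1857 CPM with luteolin. P4hb, the prototype of the family, was at 198, 195 and 192 CPM in control, 200, 195 and 276 CPM in CIA and 514, 468 and 495 CPM with luteolin. It rose by 1.14 ± 0.12 in luteolin against CIA (edgeR adjusted p = 3.74e-05) and by 1.34 ± 0.12 against control (edgeR adjusted p = 1.72e-05), whereas CIA and control overlapped (edgeR adjusted p = 0.188). Pdia3, the partner of calreticulin and calnexin, was at 204 ± 1.51 CPM in control, 194 ± 6.20 CPM in CIA and 371 ± 7.68 CPM with luteolin, and Pdia6 at 179 ± 3.62, 144 ± 5.43 and 291 ± 8.76 CPM. Pdia6 fell in CIA by 0.32 on the log2 scale (edgeR adjusted p = 0.00262), and Pdia3 was not called there (edgeR adjusted p = 0.346). Pdia4 differed from the other isomerases, with control libraries as high as those with luteolin. It was at 835, 672 and 639 CPM in control, 471, 398 and 364 CPM in CIA and 668, 647 and 620 CPM with luteolin. It fell by 0.80 in CIA (SE 0.12, edgeR adjusted p = 0.000336) and rose by 0.65 ± 0.12 in luteolin against CIA (edgeR adjusted p = 0.00112), and luteolin and control overlapped, at -0.15 (edgeR adjusted p = 0.321).

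**Figure D4:**
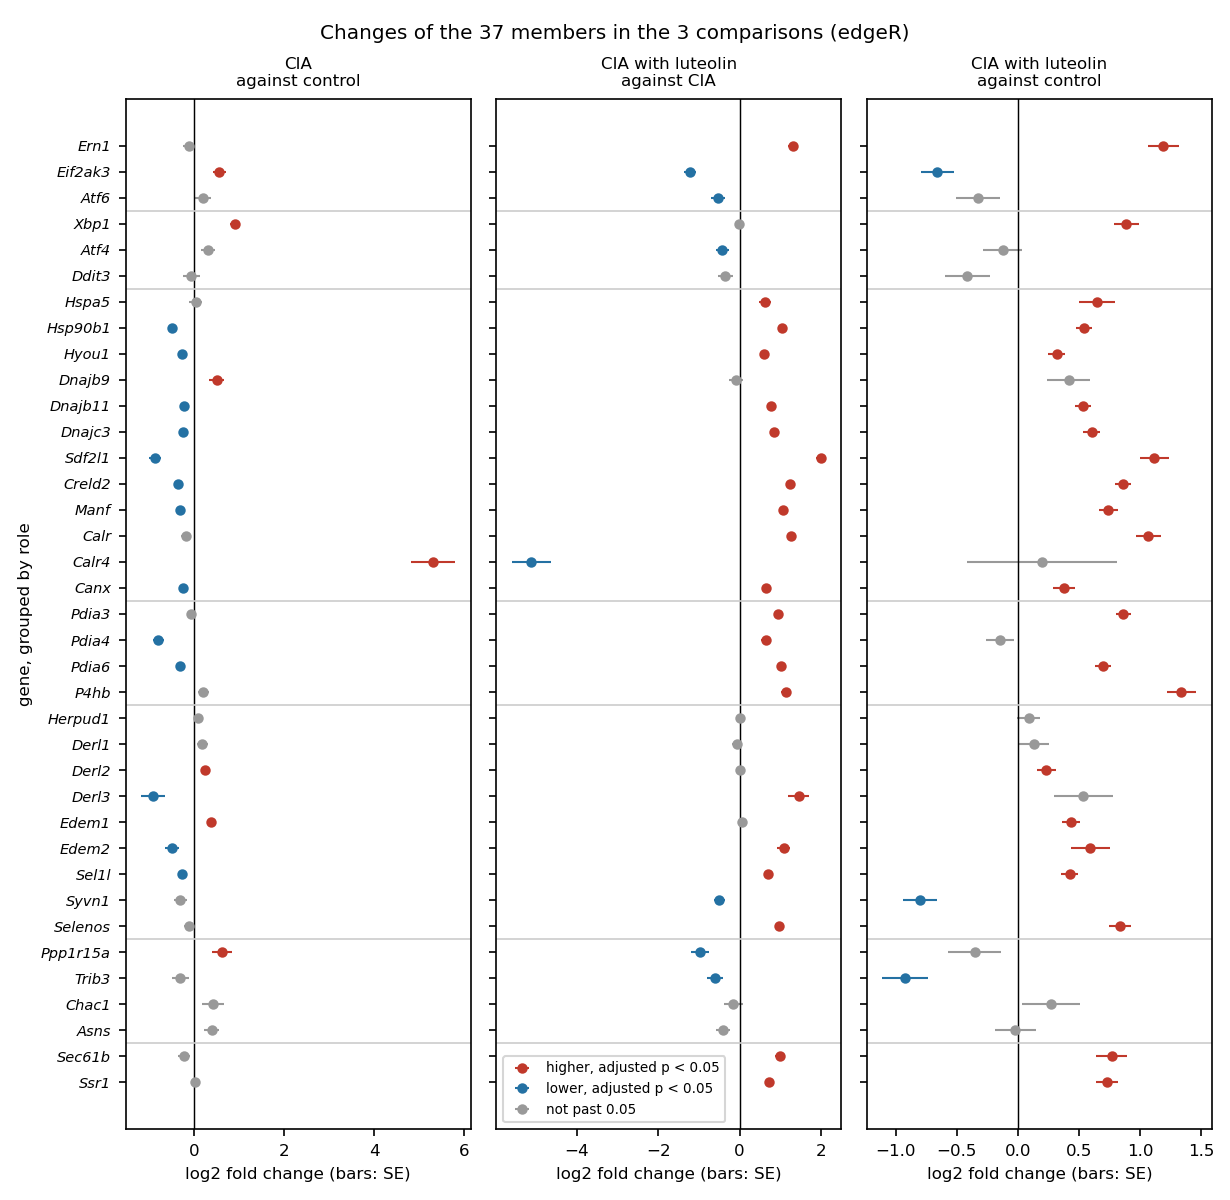
Log2 fold change with SE (horizontal axis) of the 37 members, by role, in the 3 comparisons (panels), from the edgeR fit to 9 libraries. In luteolin against CIA the chaperones, isomerases and translocon genes lie to the right of 0 with the exception of Calr4 at -5.11 and Dnajb9 at -0.08.

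The 9 genes of ER-associated degradation were mixed. In luteolin against CIA 4 rose and 1 fell (median 0.05), in CIA against control 2 rose and 3 fell, and in luteolin against control 5 rose and 1 fell. The 2 core subunits of the retrotranslocation ligase moved apart. Sel1l, the adaptor, was at 159, 158 and 162 CPM in control, 133, 138 and 127 CPM in CIA and 213, 208 and 220 CPM with luteolin. Syvn1, the ubiquitin ligase HRD1, was at 32.9, 35.6 and 39.7 CPM in control, 34.5, 29.8 and 23.0 CPM in CIA and 20.6, 20.4 and 21.0 CPM with luteolin. Sel1l was highest with luteolin, at 0.69 ± 0.07 against CIA (edgeR adjusted p = 1.98e-05), where Syvn1 was lowest, at -0.49 ± 0.14 (edgeR adjusted p = 0.0130). The Syvn1 call was lost without luteolin replicate 2, at -0.43, and 11.07% of its exonic bases are shared with 2 other gene models on the opposite strand. In CIA against control Syvn1 was not called (edgeR adjusted p = 0.0806) but was lower, at -0.45, without CIA replicate 1, while Sel1l fell by 0.27 (edgeR adjusted p = 0.00690).

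Selenos, a selenoprotein of the same complex, was at 75.3 ± 6.63 CPM in control, 68.9 ± 3.95 CPM in CIA and 134 ± 10.7 CPM with luteolin, a log2 fold change of 0.96 ± 0.09 in luteolin against CIA (edgeR adjusted p = 1.97e-05). Edem1 and Edem2 encode lectin-like proteins that act on the sugars of misfolded proteins. Edem1 was at 89.4, 90.8 and 95.8 CPM in control, 114, 120 and 125 CPM in CIA and 122, 121 and 130 CPM with luteolin. It was thus above control in both groups, by 0.38 ± 0.07 in CIA (edgeR adjusted p = 0.00164) and 0.43 with luteolin (edgeR adjusted p = 0.000815), and luteolin and CIA differed by 0.05 (edgeR adjusted p = 0.562). Edem2, at 10.8 ± 0.678, 7.62 ± 1.47 and 16.2 ± 2.40 CPM, rose by 1.09 ± 0.16 in luteolin against CIA (edgeR adjusted p = 0.000322). Its fall in CIA, -0.50 ± 0.16 (edgeR adjusted p = 0.0246), was lost without control replicate 1 (-0.45) or 2 (-0.51) or CIA replicate 3 (-0.35).

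The derlins, membrane proteins of the retrotranslocation channel, differed from each other. Derl3, the secretory-cell member, was at 1.67, 2.74 and 2.40 CPM in control, 1.61, 1.11 and 0.859 CPM in CIA and 3.32, 3.17 and 3.38 CPM with luteolin. It rose by 1.45 ± 0.26 in luteolin against CIA (edgeR adjusted p = 0.00108). Its fall in CIA against control, -0.92 ± 0.26 (edgeR adjusted p = 0.0139), was lost without control replicate 2 (-0.76), and its value in luteolin against control, 0.54, passed without CIA replicate 1 or 3 and when only these 2 groups were fitted. Derl2 was at 29.3 ± 0.294, 34.3 ± 0.870 and 34.4 ± 1.06 CPM and was above control by 0.23 in both groups (edgeR adjusted p = 0.0245 in CIA and 0.0260 with luteolin). The CIA call of Derl2 was lost without any 1 control replicate or CIA replicate 2, with values from 0.22 to 0.23, and the luteolin call without any 1 control replicate or luteolin replicate 1 or 3, with values from 0.21 to 0.25. Derl1, at 105 ± 2.46, 119 ± 23.0 and 115 ± 6.83 CPM, passed in no comparison, but was called higher in CIA at 0.30 without CIA replicate 1. Herpud1, a scaffold of the ligase with both ERSE-II and the ATF4 element before its start, was at 28.2 ± 2.57, 29.8 ± 0.413 and 30.0 ± 2.30 CPM and passed in no comparison (edgeR adjusted p = 0.509, 0.942 and 0.477).

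In the PERK and ATF4 branch no member rose in luteolin against CIA, and 2 of 4 fell (median -0.51). Ppp1r15a, or GADD34, which reverses the phosphorylation of eIF2, was at 306, 334 and 282 CPM in control, 358, 363 and 697 CPM in CIA and 239, 225 and 258 CPM with luteolin. The 3 groups did not overlap, and CIA replicate 3 was far above the other CIA libraries. It fell by 0.98 in luteolin against CIA (SE 0.22, edgeR adjusted p = 0.00410), and by 0.59 without CIA replicate 3. In CIA against control it was higher by 0.62 ± 0.22 (edgeR adjusted p = 0.0342), or by 0.23 without CIA replicate 3. That call was lost without control replicate 1 (0.61), 2 (0.68) or 3 (0.56) or luteolin replicate 1 (0.62). Luteolin against control, -0.36 (edgeR adjusted p = 0.207), was called at -0.35 without CIA replicate 3.

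Trib3, a pseudokinase induced by ATF4 and CHOP, was at 21.3, 23.7 and 21.0 CPM in control, 12.7, 17.7 and 22.7 CPM in CIA and 13.2, 11.9 and 9.82 CPM with luteolin. It was called lower with luteolin against control, at -0.92 ± 0.19 (edgeR adjusted p = 0.00260). Against CIA, which overlapped, it was lower at -0.61 ± 0.19 (edgeR adjusted p = 0.0219), or -0.39 without CIA replicate 3. That call was lost without CIA replicate 2 (-0.60) or luteolin replicate 2 (-0.57) or 3 (-0.49), and in CIA against control Trib3 was called at -0.53 only without CIA replicate 3. Asns, the asparagine synthetase, was at 37.8, 37.1 and 39.5 CPM in control, 36.0, 49.2 and 64.4 CPM in CIA and 36.8, 37.7 and 38.2 CPM with luteolin, and passed in no comparison. Without CIA replicate 1 Asns was called higher in CIA at 0.57 and lower in luteolin against CIA at -0.59. Chac1, an enzyme that degrades glutathione, was at 3.70 ± 0.458 CPM in control, 4.97 ± 1.82 CPM in CIA and 4.45 ± 0.228 CPM with luteolin, and was called only in CIA against control without CIA replicate 1, at 0.66.

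Both translocon genes rose in luteolin against CIA. Sec61b, a subunit of the channel through which new proteins enter the ER, was at 8.95 ± 1.15 CPM in control, 7.64 ± 0.850 CPM in CIA and 15.2 ± 0.920 CPM with luteolin, a log2 fold change of 0.99 ± 0.13 in luteolin against CIA (edgeR adjusted p = 0.000161). Ssr1, a subunit of the translocon-associated complex, was at 139, 137 and 124 CPM in control, 118, 140 and 144 CPM in CIA and 224, 214 and 223 CPM with luteolin, or 0.72 ± 0.09 (edgeR adjusted p = 0.000114). Neither was called in CIA against control.

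The CIA libraries were the least alike. The median coefficient of variation over the members was 13.4% in CIA, 6.14% in control and 3.75% with luteolin, and the largest of the 3 was that of CIA for 26 of the 37 genes. This was not particular to the members. Over all genes with a summed count of at least 20, chi-square per degree of freedom between replicates was 32.24 to 113.6 in CIA. It was 6.727 to 16.09 in control and 5.507 to 9.414 with luteolin. CIA replicate 3 was the highest CIA library for 22 members and the lowest for 11. Such counts were not taken over all tested genes. The most variable members in CIA were Calr4 (51.4%), Ppp1r15a (41.1%), Chac1 (36.6%) and Ddit3 (33.0%), of which the last 3 belong to the PERK and ATF4 branch or its factors.

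Other genes of the pathway, in lists that do not hold the members, were read in the same fit. Of the 114 that could be tested, 57 rose and 12 fell in luteolin against CIA (median 0.32), 15 rose and 36 fell in CIA against control (-0.11), and 49 rose and 10 fell in luteolin against control (0.20). Called in either direction in luteolin against CIA were 60.5% of them, beside 47.3% of all tested genes, and the lower ones were 10.5%, beside 24.2%. For CIA against control the shares higher and lower were 13.2% and 31.6%, where the shares of all tested genes were 26.6% and 24.5%, and 44.7% were called in either direction, below the 51.1% of all tested genes. In luteolin against control they were 43.0% and 8.77%, where 24.2% and 20.8% of all tested genes were called. The list of translocation into the ER and N-glycosylation, 26 genes, held 21 that rose and 1 that fell in luteolin against CIA (median 0.61), and 1 that rose and 11 that fell in CIA against control. Of 23 other genes of ER folding and redox, 14 rose and 2 fell in luteolin against CIA. Other ER-associated degradation (18 genes) had 6 rises and 4 falls there, and other ATF4 targets and genes of the integrated stress response (30 genes) had 9 rises and 4 falls. The 17 tested genes of other ER stress signalling had 7 rises and 1 fall there, and 3 rises and 6 falls in CIA against control. Of all tested genes 23.1% were called higher and 24.2% lower in luteolin against CIA.

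By the rule for naming genes of these lists, Ero1a and Qsox1, both of which make disulfide bonds, had the largest rises in CIA against control. Ero1a was at 64.9, 67.1 and 75.3 CPM in control, 154, 274 and 369 CPM in CIA and 105, 104 and 109 CPM with luteolin, the CIA libraries being apart and highest. It rose by 1.94 ± 0.24 in CIA (edgeR adjusted p = 0.000137) and fell by 1.32 in luteolin against CIA (SE 0.24, edgeR adjusted p = 0.00112), in which the isomerases it oxidizes rose. Qsox1 was at 9.47, 10.3 and 11.3 CPM in control, 38.0, 52.4 and 35.7 CPM in CIA and 23.2, 21.6 and 21.8 CPM with luteolin. The largest falls in CIA were those of Eif2ak2 and Cth. Eif2ak2 encodes PKR, an eIF2 kinase activated by double-stranded RNA, and was at 240, 228 and 238 CPM in control, 97.4, 104 and 84.9 CPM in CIA and 313, 324 and 306 CPM with luteolin. It was thus lowest in CIA, where the eIF2 kinase gene Eif2ak3 was highest. Eif2ak2 changed by -1.30 ± 0.08 in CIA against control (edgeR adjusted p = 3.27e-06) and by 1.72 ± 0.08 in luteolin against CIA (edgeR adjusted p = 2.00e-07). Cth, which makes cysteine, changed by -1.50 ± 0.48 in CIA against control (edgeR adjusted p = 0.0226), and Vldlr, a lipoprotein receptor, by 2.35 ± 0.32 in luteolin against CIA (edgeR adjusted p = 0.000202).

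Among the 12 members with ERSE or ERSE-II in their promoter, 9 rose and 2 fell in luteolin against CIA, with a median log2 fold change of 0.80. The 2 that fell were Calr4 and Syvn1, whose elements are printed above, and Herpud1 did not pass. The 21 members whose promoter held neither had 10 rises and 4 falls (median 0.05). In CIA against control the 12 had 1 rise and 7 falls, and the 21 had 6 rises and 4 falls. The 2 sets were closer in luteolin against control. There the 12 had 8 rises and 1 fall (median 0.54), and the 21 had 12 rises and 2 falls (median 0.42). Over all tested genes 23.1% were called higher and 24.2% lower in luteolin against CIA. The shares were 26.6% and 24.5% in CIA against control, and 24.2% and 20.8% in luteolin against control. The 37 genes outside the list with either element gave 17 that could be tested, of which 5 rose and 5 fell in luteolin against CIA (median -0.06) and 2 rose and 4 fell in CIA against control. In luteolin against control 3 of these 17 rose and 6 fell (median -0.18). One that rose in luteolin against CIA was Nucb1, a calcium-binding protein of the Golgi, at 908 CPM with luteolin and 547 CPM in CIA (edgeR adjusted p = 0.000419). Unlike most of the chaperones, Nucb1 was also called higher in CIA against control, at 0.43 ± 0.11 (edgeR adjusted p = 0.00894). The 5 that fell in luteolin against CIA were Acacb, Gm6566, Lrif1, Pan2 and Rbm39.

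The summed markers of some cell types moved with the chaperones. The 6 genes of dividing cells were all lower in CIA against control and all higher in luteolin against CIA, with sums of 1121 to 1150, 328 to 434 and 2056 to 2101 CPM in control, CIA and luteolin. Of the 10 macrophage markers 8 fell in CIA and all 10 rose in luteolin against CIA, with sums of 184 to 240, 113 to 142 and 479 to 565 CPM. Of the 9 plasma cell markers that could be tested, 3 rose and 3 fell in CIA and 5 rose and 2 fell in luteolin against CIA. Their sums were 429 to 434, 290 to 392.2 and 674 to 723 CPM, and Tnfrsf17 had no counts in the control libraries. The sums of these 3 lists had the order of the chaperone sum, lowest in CIA and highest with luteolin. Of the plasma cell markers only Sdc1, Ighg1 and Ighg2b had this order of group means. Jchain and Igha were lowest in control, and Irf4 and Mzb1 were lowest with luteolin. Of the macrophage markers, Spic (35.7, 7.47 and 22.7 CPM in control, CIA and luteolin) and Cd5l (30.0, 0.443 and 20.2 CPM) were highest in control. Csf1r (65.2, 75.1 and 284 CPM) was lowest in control and made the largest part of the macrophage sum with luteolin. The other macrophage markers and all those of dividing cells had the order of the sums. The 5 markers of neutrophil precursors summed to 2.09 to 5.12, 2.84 to 4.56 and 327 to 397 CPM, all 5 rising in luteolin against CIA. The 9 markers of mature neutrophils summed to 2047 to 2416 CPM in control and 6701 to 11328 CPM in CIA. With luteolin their sum was 8212 to 8699 CPM, within the range of CIA. All 9 rose in CIA against control, and 3 rose and 6 fell in luteolin against CIA. Of the CIA libraries, replicate 3 had the highest mature neutrophil sum and the highest levels of Calr4, Ppp1r15a and Ero1a. It also had the highest macrophage, T cell, and mast cell and basophil sums of that group. The B cell and plasma cell sums were lowest there, and 22 of the 37 members were highest there. The 6 mast cell and basophil markers rose in CIA and 5 of them again with luteolin, with sums of 10.7 to 15.4, 67.5 to 128 and 200.7 to 220 CPM. The part of these cells in the changes of the chaperones, sensors and the ATF4 branch was not tested.

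**Figure D5:**
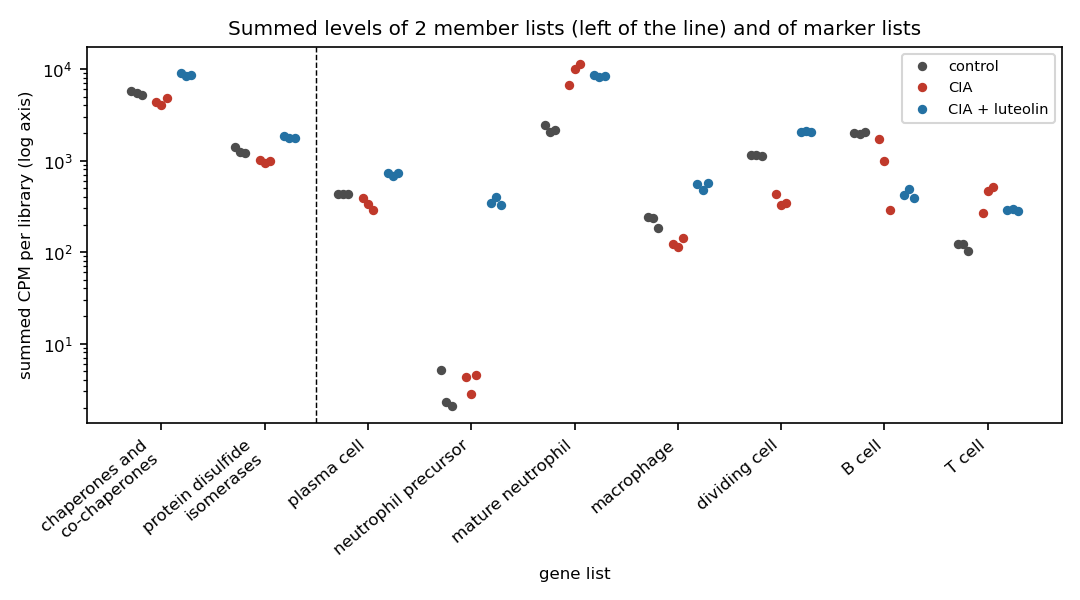
Summed CPM (vertical axis, log scale) of the chaperone and isomerase members and of 7 lists of cell markers in each of the 9 libraries, with 1 point per library and colour by group. The sums of the dividing-cell, macrophage and plasma-cell lists are lowest in CIA and highest with luteolin, as are those of the chaperones and isomerases.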

How the data were processed

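The authors deposited a raw count for each gene and each of 9 libraries, made with featureCounts (Subread 1.5.1), per the labels' protocols, after trimming with Trimmomatic 0.36, per the submitters' processing notes. The genome is mm39 in those notes and CHOK1GS, from a hamster cell line, in the protocols. Coordinates of genes are those of the deposited table. The strand setting and the rule for reads on several genes are not given in the sources used here. Of counts from 1 to 10, 73.4% were even, against 52.8% from 201 to 1000. Lengths in the deposited table were used for levels per kilobase.

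The 37 members and all lists of genes, tests and alternatives were chosen with earlier results of these data known. Counts were tested with edgeR 4.0.16 in R 4.3.3: filterByExpr kept 19348 of 56860 genes, TMM factors were 0.9498 to 1.018, and 1 quasi-likelihood model of the 3 groups took all 9 libraries. P-values are 2-sided and were adjusted by Benjamini-Hochberg over the tested genes, at a threshold of 0.05. An SE was taken as the absolute log2 fold change over the root of F. Of the called genes in the other lists that averaged 2 CPM or more, the 2 largest rises and 2 largest falls were named in each comparison that involves CIA libraries. The elements in promoters were chosen after the values were seen. Chi-square per degree of freedom between replicates was 5.507 or more, so none was a duplicate. On simulated data for luteolin against CIA, with 19348 genes, 58% of 50 genes changed 2-fold were recovered and 5 unchanged genes were called. Far fewer genes were changed there than the 47.3% called in the data, which makes the adjustment stricter. The recovery therefore does not give the power of the real comparison. Alternatives were DESeq2 1.42.0, its size factors, no filter or a filter of 1 CPM in 3 libraries, only the 2 groups compared, counts halved, a replicate block, and leaving out each library.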

Additional observations from a re-analysis of the deposited data

How the results depend on the processing

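In CIA against control, members higher went from 7 to 4 with only the 2 groups compared, and from 4 to 11 when 1 library was left out; members lower, 13, ranged from 10 to 17. In luteolin against CIA, members lower went from 7 to 4 with only the 2 groups, and from 3 to 8 without 1 library. In luteolin against control, members lower went from 3 to 6 with no filter and with only the 2 groups, and from 3 to 6 without 1 library. Values near 0 that changed sign, none of them past the threshold, were Ssr1 in CIA against control (-0.000676 with no filter), Xbp1 in luteolin against CIA (0.00912 with no filter, 0.00436 with the stricter filter and 0.0180 with the 2 groups), Herpud1 (-0.00931) and Derl2 (-0.0156) there with counts halved, and Asns in luteolin against control (0.000805 with DESeq2, 0.000832 with its size factors and 0.0126 with the stricter filter). Without 1 library the sign also changed in CIA against control for Atf6 (-0.048 to 0.41), Ddit3 (-0.35 to 0.12), Hspa5 (-0.20 to 0.14) and Ssr1 (-0.041 to 0.091). In luteolin against CIA it changed for Chac1 (-0.39 to 0.13), Derl1 (-0.17 to 0.10), Derl2 (-0.015 to 0.064), Dnajb9 (-0.17 to 0.11), Herpud1 (-0.045 to 0.087) and Xbp1 (-0.093 to 0.094), and in luteolin against control for Asns (-0.041 to 0.032) and Calr4 (-0.16 to 0.66). Of the values with a changed sign only that of Hspa5 passed, lower without CIA replicate 3. Calls gained with no filter were Atf4, Calr and Asns in CIA against control, Ddit3 and Asns in luteolin against CIA, and Atf6, Ddit3, Dnajb9 and Ppp1r15a in luteolin against control. Outside CIA, Calr4 rests on 8 to 25 counts per library. The labels give no origin for the replicate numbers, and pairing was not established by the rule used, a correlation of deviations over 0.1 in every same-numbered pair. It was above 0 in 8 of 9 pairs and over 0.1 in 3 (0.166 to 0.263). Control libraries matched best with their own number in 6 of 6 cases, and CIA libraries with luteolin in 2 of 3, a hint from the data and not the design. With a replicate block 7, 21 and 23 members were higher and 13, 6 and 3 lower, and 9794, 9148 and 8764 genes passed in the 3 comparisons in the order above. The block ended the call of Atf4 in luteolin against CIA (-0.40, edgeR adjusted p = 0.0609) and added that of Dnajb9 in luteolin against control (0.44, edgeR adjusted p = 0.0157), and changed no other call of a member. The causes were not tested.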
